A study of Mus musculus with 10 samples.

Results

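The genes described here encode the enzymes that methylate lysine 9 of histone H3 (H3K9) and their partner proteins. They were chosen by name as 9 genes, Ehmt1, Ehmt2, Wiz, Suv39h1, Suv39h2, Setdb1, Setdb2, Atf7ip and Trim28, and each was represented by the RefSeq row with the highest mean level over all libraries. Of the 9 genes, 8 had a row in the table, out of 24520 genes in all, and all 8 passed the filter on low values that left 11956 genes for testing. Setdb2 was not analysed here, because no row was matched to its name.

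RNA was sequenced from mouse V6.5 embryonic stem cells (ESCs) and from neural progenitor cells (NPCs) made from them, in 5 groups of 2 libraries that the labels call biological replicates. ESCs were grown on irradiated mouse embryonic fibroblast feeders with serum and leukemia inhibiting factor, and NPCs were made through embryoid bodies over 4 days followed by plating in ITSF medium. ESCs received a control siRNA or siRNA against Cbx3, and NPCs received a control siRNA, siRNA against Cbx3 or siRNA against Med26. Per the labels, siRNA was transfected on day 5 of the protocol for NPCs and RNA was taken on day 8. The labels give no separate times for ESCs, and all groups share the same cell line and carry no stated allele. Levels are RPKM, mapped reads scaled to transcript length in kilobases and to library depth in M reads (M for mega), so levels of different genes can be compared per length.

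H3K9 methylation marks silent chromatin. Monomethylation and dimethylation in gene-rich chromatin are made mainly by the heterodimer of EHMT1 (also called GLP) and EHMT2 (also called G9a), which the zinc finger protein WIZ helps to hold together and to bring to chromatin. SUV39H1 and SUV39H2 make trimethylation at pericentromeric repeats, and SETDB1, stabilised by ATF7IP and recruited by the corepressor TRIM28, makes it at retrotransposons and imprinted regions. Heterochromatin protein 1 family members, of which CBX3 is one, bind methylated H3K9. MED26 is a subunit of the Mediator complex.

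The 7-base motif GAGAGTT was present in the transcripts of 2 of the 8 measured genes, Ehmt1 and Ehmt2, and in that of Cbx3, the siRNA target. It had been singled out earlier from changes in these same libraries, so its presence lends no independent weight to any result. The windows of 27 bases are printed 5′ to 3′ on the transcript strand with the motif in capitals, because Ehmt1 and Ehmt2 were the 2 of the 8 genes called lower after Cbx3 siRNA in NPCs.
Cbx3: gacagcagcgGAGAGTTaatgtttctc
Ehmt2: gagccgccgaGAGAGTTcatagctctt
Ehmt1: tacagccttgGAGAGTTtggctgaccc
In GRCm38 with GENCODE M21 transcripts, the Cbx3 window lies in coding sequence in exon 5 of 6, at chr6:51481784-51481810 on the plus strand. The Ehmt2 window lies in coding sequence across the junction of exons 2 and 3 of 27 in the matched transcript, between the outer bases of chr17:34899239-34899371 on the plus strand. The Ehmt1 window lies in the 3′ UTR in exon 27 of 27, at chr2:24791481-24791507 on the minus strand.

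Each of the 4 matched transcripts of Ehmt1 and each of the 4 of Ehmt2 held 1 match, whereas Wiz, Suv39h1, Suv39h2, Setdb1, Atf7ip, Trim28 and Med26 held 0. Outside the motif, the Ehmt2 window shared 7 of 20 bases with the Cbx3 window and the Ehmt1 window shared 9 of 20. Only the transcript strand was searched. The motif was present in transcripts of 2160 of 11773 tested genes with a matched transcript, or 18.3%. The median log2 change of these genes in NPCs was −0.04 after Cbx3 siRNA and 0.02 after Med26 siRNA, against 0.02 and −0.01 for genes without it. In ESCs after Cbx3 siRNA the median was −0.08 with the motif and −0.01 without it. All these medians come from the libraries in which the motif had been singled out. A match describes letters in a transcript, and no siRNA sequence is in the sources used here.

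The siRNA targets were lower in the libraries labelled with their siRNA. Cbx3 stood at 9.37 and 9.65 RPKM in control NPCs and at 0.425 and 0.249 RPKM after Cbx3 siRNA. In ESCs it stood at 14.0 and 56.4 RPKM in controls, which differed 4.03-fold from each other, and at 1.01 and 1.96 RPKM after Cbx3 siRNA. Med26 stood at 7.56 and 6.78 RPKM in control NPCs and at 3.04 and 3.07 RPKM after Med26 siRNA. The smallest regular step of the low values corresponded to a depth of 16.8 M to 31.9 M per library. Values midway to the first step were 44.3% to 55.1% as frequent as values on it in 8 libraries and 0.26% and 0.24% as frequent in replicate 2 of ESC control and of ESC Cbx3 siRNA, so these 2 libraries stood apart and ESC values are given by replicate number. Markers were compared between control NPCs and control ESCs as a check of the labels. Between these groups 16.0% of all tested genes were called. Of 14 pluripotency markers, 7 were lower and 0 higher in NPCs, with a median log2 change of −1.44. Pou5f1 remained at 484 to 497 RPKM in control NPCs, and Nanog, at −0.24, was not called (adjusted p = 0.77 by limma). Of 10 tested neural progenitor markers, 3 were higher and 3 lower. Nes and Sox1 were among the higher ones, by 1.68 (adjusted p = 0.0448) and 0.58 (adjusted p = 0.0103). Sox2 and Ncam1 were among the lower ones. Pax6, at 0.95, was not called (adjusted p = 0.0534). Of 6 tested markers of other lineages, 1 was higher, T by 1.44 (adjusted p = 0.00274), and 2 were lower. Krt18, at 2.47, and Krt8, at 2.02, were not called (adjusted p = 0.141 and 0.29). Summed feeder fibroblast markers ranged from 58.5 to 93.0 RPKM in ESCs and from 20.2 to 27.2 RPKM in NPCs, and their part in the results between cell types was not tested.

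The 8 genes covered a wide range of levels in control NPCs. Trim28 was the highest at 552.8 ± 16.8 RPKM (SD, n = 2), followed by Ehmt2 at 31.3 ± 0.703, Setdb1 at 24.1 ± 1.13 and Ehmt1 at 20.7 ± 0.338. Suv39h1 at 12.5 ± 1.10, Suv39h2 at 9.47 ± 0.0244, Atf7ip at 5.06 ± 0.931 and Wiz at 2.49 ± 1.24 RPKM followed. No neighbours in this order overlapped between the 2 libraries. In control ESCs the order was the same except that Suv39h2 and Suv39h1 changed places, and their libraries overlapped there. After Med26 siRNA the order was that of control NPCs, and Ehmt2 and Setdb1 overlapped. After Cbx3 siRNA Ehmt2 moved from the second place to the fifth in NPCs and to the third in ESCs, where it overlapped Ehmt1.

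**Figure D1:**
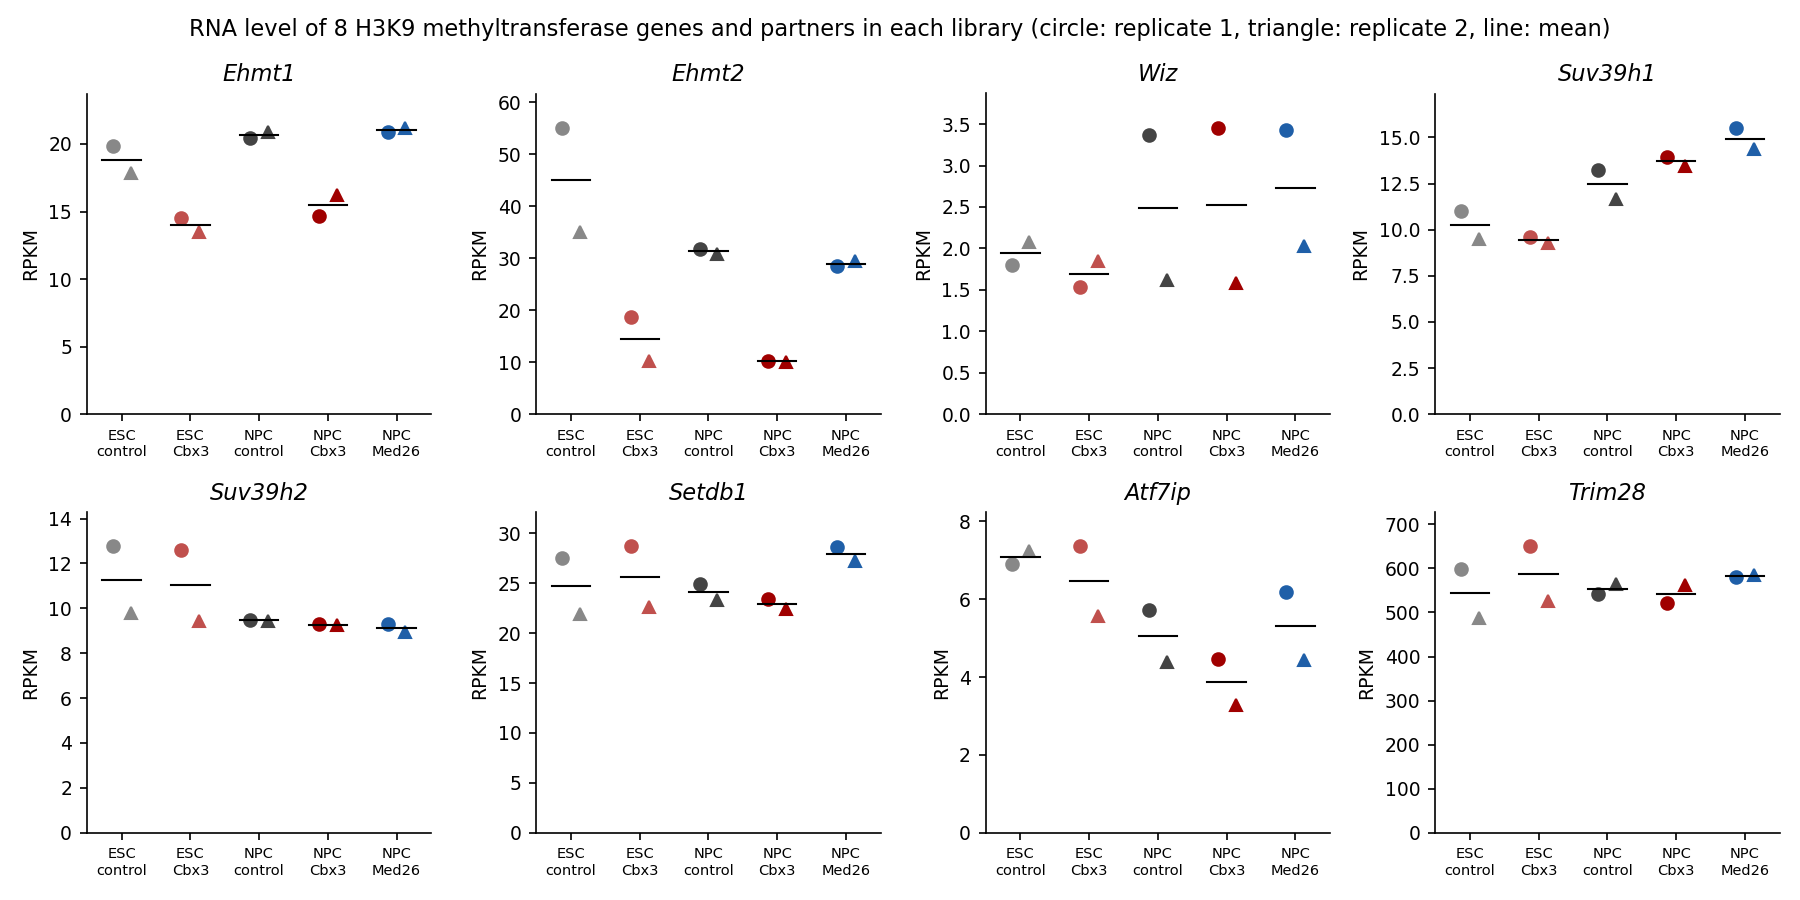
RPKM of the 8 measured genes in each of the 10 libraries, in 1 panel per gene with its own axis from 0; circles are replicate 1, triangles are replicate 2 and lines are group means. Ehmt2 and Ehmt1 are lower in both libraries of each Cbx3 siRNA group than in the matching controls. Wiz, Atf7ip, Suv39h1, Suv39h2 and Setdb1 are higher in replicate 1 than in replicate 2 of every NPC group.

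Cbx3 siRNA was compared with control siRNA in NPCs for the RNA of the enzymes that make H3K9 methylation and their partners. Whether a change came with loss of the CBX3 protein or with action of the siRNA on other transcripts was not tested. Ehmt2 and Ehmt1, the catalytic pair, fell, and the other 6 genes did not pass the test. That is 2 of 8 genes called, both lower, against 13.1% of all tested genes called in either direction (1570 genes, 933 higher and 637 lower). The median log2 change of the 8 genes was −0.05, against 0.01 for all genes tested.

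Ehmt2 stood at 31.8 and 30.8 RPKM in control NPCs and at 10.3 and 10.1 RPKM after Cbx3 siRNA. Both Cbx3 siRNA libraries were below both controls, by 67.6% and 67.4% between libraries of the same number. The change was −1.53 on the log2(RPKM + 1) scale (SE 0.06, 95% interval −1.66 to −1.40), with an adjusted p of 0.000175 by limma with Benjamini-Hochberg adjustment, and it was the third lowest of the 11956 genes tested. It passed in each of 6 fits that left out 1 NPC library, with adjusted p from 0.00176 to 0.00622. In a fit of all 10 libraries, whose pooled spread includes the ESCs, the adjusted p was 0.125.

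Ehmt1, the partner of Ehmt2 in the heterodimer, stood at 20.4 and 20.9 RPKM in control NPCs and at 14.7 and 16.2 RPKM after Cbx3 siRNA. The groups did not overlap, and the differences between libraries of the same number were −0.45 and −0.35 on the log2 scale. The change was −0.40 (SE 0.06, 95% interval −0.55 to −0.24, adjusted p = 0.014 by limma), which placed Ehmt1 at rank 461 from the lowest. It passed in 3 of 6 fits that left out 1 library. Without control replicate 1 the adjusted p was 0.0679, without control replicate 2 it was 0.0759, and without Cbx3 siRNA replicate 1 it was 0.0735. In the fit of all 10 libraries it was 0.189.

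The balance of the pair differed between the groups, as a description with no test of its own. The ratio of Ehmt2 to Ehmt1 RPKM was 1.56 and 1.48 in control NPCs and 0.701 and 0.621 after Cbx3 siRNA. Ehmt2 was thus the more abundant transcript of the pair in controls and the less abundant one after Cbx3 siRNA. Their summed level was 52.2 and 51.7 RPKM in controls and 25.0 and 26.3 RPKM after Cbx3 siRNA. RNA was taken from whole cultures, so fewer cells of a type and less RNA per cell cannot be told apart in these or any later values. In the same comparison 5 of the 10 tested neural progenitor markers fell and 2 rose, beside 13.1% of all tested genes called in either direction. Among those that fell were Pax6 at −0.98 (adjusted p = 0.00226) and Sox1 at −0.71 (adjusted p = 0.0064), and among those that rose was Ncam1 at 0.47 (adjusted p = 0.0419, by limma). Among 6 tested markers of other lineages 3 rose, beside the same 13.1%. These were Krt8 by 1.51 (adjusted p = 0.000285), Krt18 by 1.20 (adjusted p = 0.000731) and Acta2 by 1.18 (adjusted p = 0.000408). Most of the summed level of that list came from these 3 genes. The sum was 216.5 to 228.3 RPKM in control NPCs and 522.6 to 559.9 RPKM after Cbx3 siRNA. After Med26 siRNA it was 354.1 to 369.6 RPKM. Krt8, Krt18 and Acta2 rose there too, by 0.94, 0.66 and 0.32 (adjusted p = 0.0018, 0.0044 and 0.0168, by limma), and T fell by 0.76 (adjusted p = 0.0133). After Med26 siRNA 13.4% of all tested genes were called in either direction. The part of these markers in the Ehmt1 and Ehmt2 values was not tested.

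Wiz, which encodes the zinc finger partner of the same complex, stood at 3.36 and 1.62 RPKM in control NPCs and at 3.45 and 1.59 RPKM after Cbx3 siRNA. Its change was 0.01 with a 95% interval of −0.83 to 0.84, and replicate 1 was over 2-fold above replicate 2 in both groups. Its values rested on 74 to 270 steps of the count scale per library, the fewest of the 8 genes.

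The trimethylating enzymes gave smaller differences. Suv39h1 stood at 13.2 and 11.7 RPKM in control NPCs and at 14.0 and 13.4 RPKM after Cbx3 siRNA, with a difference of 0.13 (adjusted p = 0.34). Suv39h2 stood at 9.49 and 9.46 against 9.30 and 9.24 RPKM, with a difference of −0.03 (adjusted p = 0.806). Setdb1 stood at 24.9 and 23.3 against 23.4 and 22.4 RPKM, with a difference of −0.07 (adjusted p = 0.503). The 95% intervals were −0.06 to 0.32, −0.18 to 0.12 and −0.22 to 0.08, so each held 0, and none reached the change of Ehmt1 or Ehmt2.

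Of the SETDB1 partners, Trim28 stood at 540.9 and 564.7 RPKM in control NPCs and at 521.2 and 562.5 RPKM after Cbx3 siRNA, with a difference of −0.03 (95% interval −0.18 to 0.13, adjusted p = 0.805). Atf7ip stood at 5.72 and 4.40 against 4.48 and 3.29 RPKM, with a difference of −0.31 (95% interval −0.77 to 0.14, adjusted p = 0.32). Its groups overlapped by 1 library, since Cbx3 siRNA replicate 1 was above control replicate 2. Between libraries of the same number the differences of Atf7ip were −0.29 and −0.33. With the replicate number as a block, limma gave it an adjusted p of 0.0171, in a fit where 3495 of all tested genes passed. Over the 8 genes, 3 were lower in both Cbx3 siRNA libraries than in both controls (Ehmt1, Ehmt2 and Suv39h2) and 1 was higher (Suv39h1), against 26.5% and 30.1% of all tested genes.

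**Figure D2:**
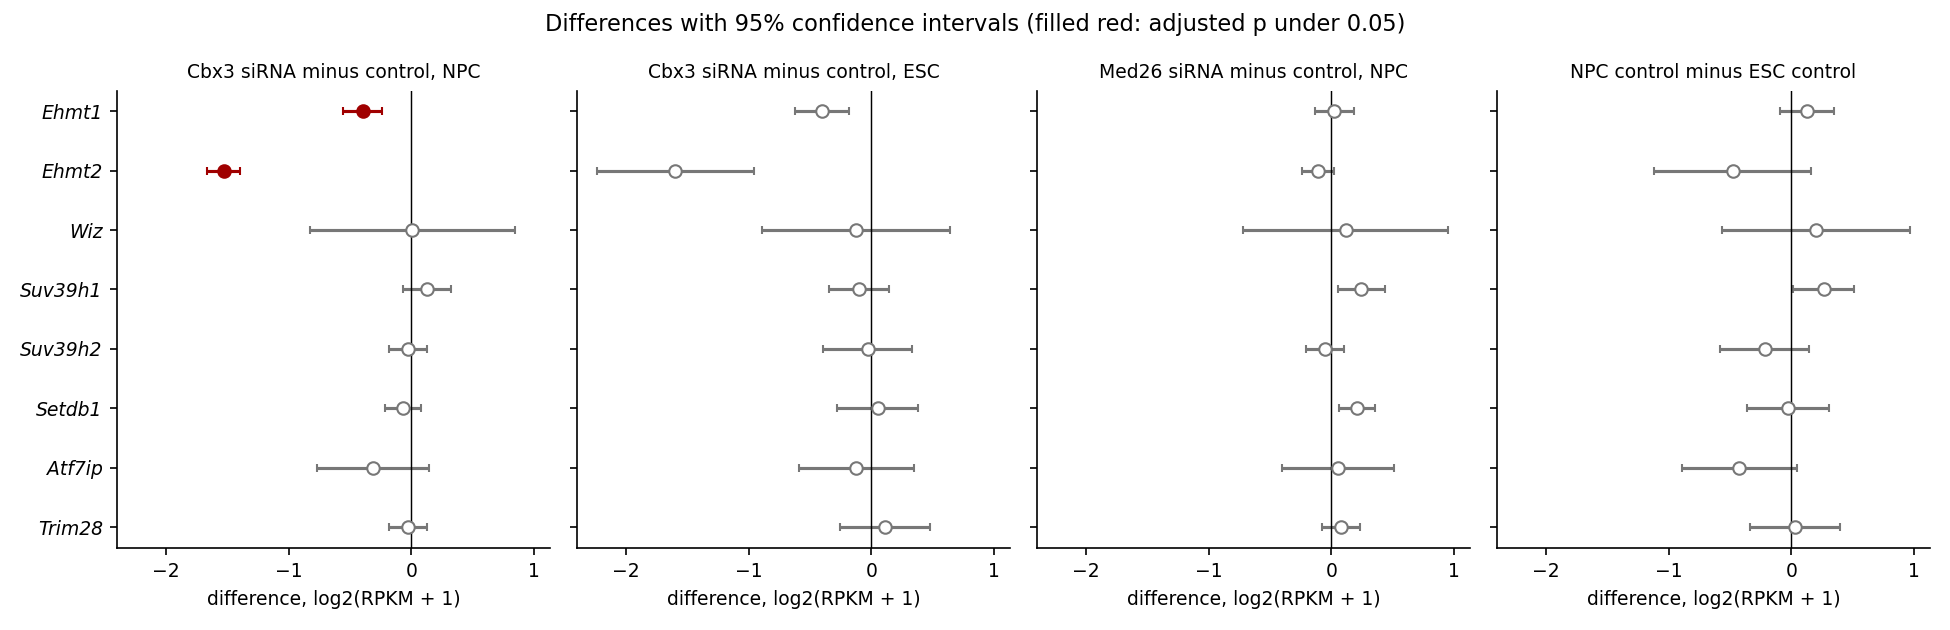
Differences on the log2(RPKM + 1) scale with 95% confidence intervals for the 8 genes, in 4 comparisons; filled red points have an adjusted p under 0.05. The filled points are Ehmt1 at −0.40 and Ehmt2 at −1.53 after Cbx3 siRNA in NPCs, and the ESC values of both genes lie at −0.40 and −1.60 with wider intervals.

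The Cbx3 siRNA comparison was repeated in ESCs, with no control library shared with the NPCs. None of the 8 genes was called, against 0.0% of all tested genes, since no gene passed limma's test with Benjamini-Hochberg adjustment in this comparison. At an unadjusted p under 0.05 there were 645 genes, and 2 of the 8 were among them, Ehmt2 and Ehmt1.

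Ehmt2 stood at 55.0 and 35.1 RPKM in control ESCs and at 18.6 and 10.2 RPKM after Cbx3 siRNA. Both Cbx3 siRNA libraries were below both controls, although the controls differed 1.57-fold from each other and the Cbx3 siRNA libraries 1.82-fold. The difference was −1.60 (SE 0.27, 95% interval −2.24 to −0.96, adjusted p = 0.339), the second lowest of all tested genes. Within replicate 1 it was −1.51 and within replicate 2 it was −1.68, and with the replicate number as a block the adjusted p was 5.38e-05.

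Ehmt1 stood at 19.8 and 17.9 RPKM in control ESCs and at 14.5 and 13.5 RPKM after Cbx3 siRNA, again without overlap. The difference was −0.40 (SE 0.09, 95% interval −0.62 to −0.18, adjusted p = 0.54). Within replicate 1 it was −0.43 and within replicate 2 it was −0.38, and with the block the adjusted p was 0.0108. Ehmt1 and Ehmt2 were the 2 of the 8 genes whose groups did not overlap in ESCs, both lower, against 13.1% of all tested genes that were lower in this way. The ratio of Ehmt2 to Ehmt1 was 2.78 and 1.97 in control ESCs and 1.28 and 0.760 after Cbx3 siRNA.

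The other 6 genes overlapped between ESC groups. Their differences were −0.13 for Wiz, −0.10 for Suv39h1, −0.03 for Suv39h2, 0.05 for Setdb1, −0.12 for Atf7ip and 0.11 for Trim28. In 5 of these 6 genes the libraries separated by replicate number, with replicate 1 above replicate 2 in both groups for Suv39h1, Suv39h2, Setdb1 and Trim28, and below it for Wiz. Suv39h2 stood at 12.8 and 9.77 RPKM in controls and at 12.6 and 9.45 RPKM after Cbx3 siRNA, and Setdb1 at 27.5 and 21.9 against 28.7 and 22.6 RPKM. Trim28 stood at 598.9 and 487.6 against 650.0 and 526.7 RPKM.

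The difference between the NPC and the ESC response was tested directly. It was 0.07 for Ehmt2 (95% interval −0.84 to 0.97) and 0.01 for Ehmt1 (95% interval −0.31 to 0.32). None of the 8 genes was called, against 0.0% of all tested genes by limma, with 233 genes and 0 of the 8 at an unadjusted p under 0.05. The interval for Ehmt2, from the fit without a replicate block, is wide against its NPC change of −1.53, so equal responses were not shown. Between libraries of the same number, Ehmt2 differed by −1.536 and −1.525 in NPCs and by −1.514 and −1.684 in ESCs.

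**Figure D3:**
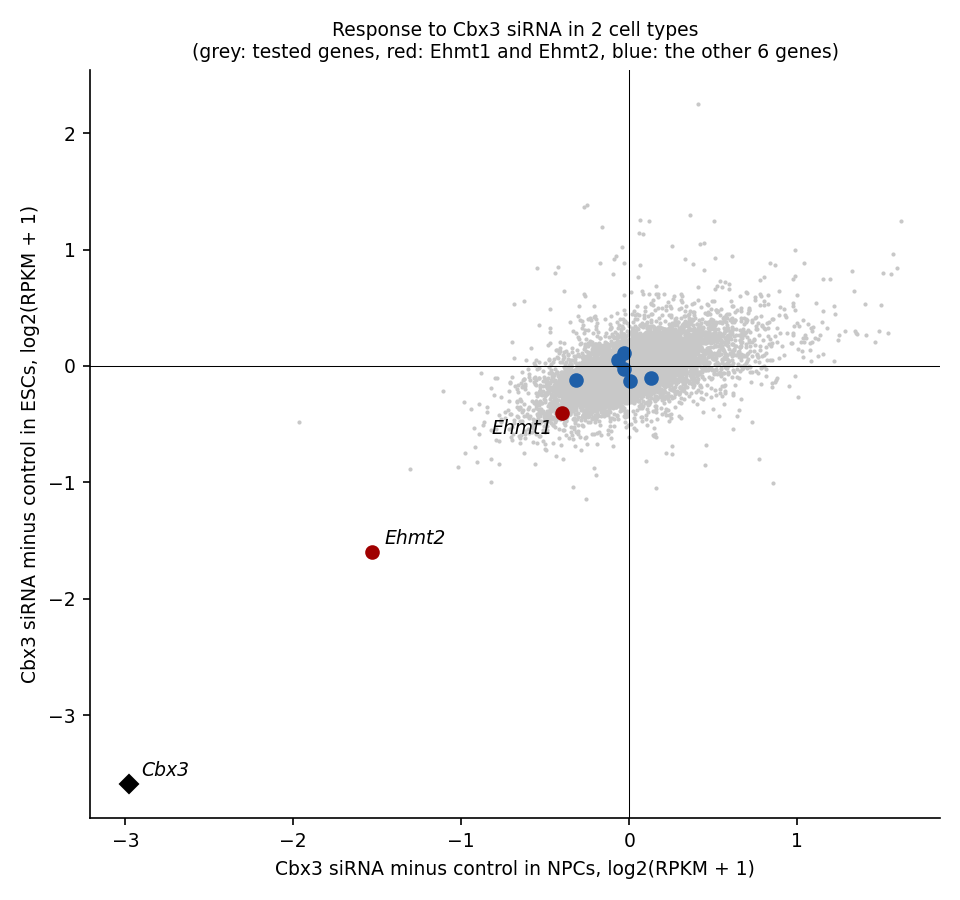
Difference between Cbx3 siRNA and control in NPCs (horizontal axis) and in ESCs (vertical axis), both on the log2(RPKM + 1) scale, with each tested gene in grey, Ehmt1 and Ehmt2 in red, the other 6 measured genes in blue and Cbx3 as a black diamond. Ehmt2 lies apart from the grey cloud at −1.53 and −1.60. Ehmt1, at −0.40 and −0.40, lies inside the cloud, as do the 6 blue points.

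Med26 siRNA was compared with the same NPC controls, so its values and those of Cbx3 siRNA share control libraries and are given side by side. None of the 8 genes was called, against 13.4% of all tested genes (1597 genes, 825 higher and 772 lower, by limma). At an unadjusted p under 0.05 there were 3755 genes and 2 of the 8, Setdb1 and Suv39h1. Ehmt2 stood at 28.4 and 29.5 RPKM after Med26 siRNA, a difference of −0.11 (95% interval −0.24 to 0.02, adjusted p = 0.23), where Cbx3 siRNA gave −1.53. Ehmt1 stood at 20.9 and 21.2 RPKM, a difference of 0.03 (95% interval −0.13 to 0.18, adjusted p = 0.828), where Cbx3 siRNA gave −0.40.

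Setdb1 stood at 28.6 and 27.3 RPKM after Med26 siRNA, above both controls at 24.9 and 23.3 RPKM. Its difference was 0.21 (adjusted p = 0.0742). Suv39h1 stood at 15.5 and 14.4 RPKM, above both controls at 13.2 and 11.7 RPKM, with a difference of 0.24 (adjusted p = 0.095). The differences of the other 4 genes were 0.12 for Wiz, −0.05 for Suv39h2, 0.05 for Atf7ip and 0.08 for Trim28. Of the 8 genes, 4 were higher in both Med26 siRNA libraries than in both controls (Ehmt1, Suv39h1, Setdb1 and Trim28) and 2 were lower (Ehmt2 and Suv39h2), against 29.1% and 29.8% of all tested genes.

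Cbx3 siRNA was then compared directly with Med26 siRNA in NPCs. Ehmt2, Ehmt1 and Setdb1 were lower after Cbx3 siRNA, which is 3 of 8 genes called against 18.3% of all tested genes (2185 genes). Ehmt2 differed by −1.42 (SE 0.06, adjusted p = 0.000338), the fourth lowest of all tested genes. Ehmt1 differed by −0.42 (SE 0.06, adjusted p = 0.00954), and Setdb1 by −0.28 (SE 0.06, adjusted p = 0.0284).

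These 3 calls were not equally firm. Ehmt2 passed in 6 of 6 fits that left out 1 NPC library. Ehmt1 passed in 4 of 6, with an adjusted p of 0.0609 without Med26 siRNA replicate 1 and 0.0549 without Med26 siRNA replicate 2. Setdb1 passed in 2 of 6, with 0.0807 and 0.134 without Cbx3 siRNA replicates 1 and 2, and 0.153 and 0.0821 without Med26 siRNA replicates 1 and 2. With no filter on low values the adjusted p of Setdb1 was 0.0578. In the fit of all 10 libraries the adjusted p was 0.0678 for Ehmt2, 0.0887 for Ehmt1 and 0.469 for Setdb1.

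Between the control groups of both cell types, none of the 8 genes was called, against 16.0% of all tested genes (1918 genes, 1208 higher in NPCs and 710 lower, by limma). At an unadjusted p under 0.05 there were 4010 genes and 1 of the 8, Suv39h1. Ehmt2 was lower in both NPC controls than in both ESC controls, with a difference of −0.48 (95% interval −1.12 to 0.16, adjusted p = 0.269). The difference was −0.77 within replicate 1 and −0.18 within replicate 2. Atf7ip differed by −0.42 (adjusted p = 0.187), Suv39h2 by −0.22 (adjusted p = 0.362) and Suv39h1 by 0.26 (adjusted p = 0.131). Ehmt1 differed by 0.13, Wiz by 0.20, Setdb1 by −0.03 and Trim28 by 0.03.

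The choice of RefSeq row made little difference to these values. Ehmt1 and Ehmt2 had 4 rows each, Wiz and Setdb1 had 3, Suv39h1 and Suv39h2 had 2, and Atf7ip and Trim28 had 1. The log2 ratio of mean RPKM after Cbx3 siRNA to control in NPCs was −1.62 in each of the 4 rows of Ehmt2 and lay between −0.42 and −0.41 over those of Ehmt1. The rows of 1 gene share most of their exons and are not separate measurements. Exons of Suv39h1, Suv39h2, Setdb1 and Atf7ip overlap genes on the opposite strand in the annotation, Gm14820, Dclre1c, Cers2 with Gm37500, and Gm44140 in turn. The sources used here do not say whether counting used strand, so reads of these partners cannot be told apart. Ehmt1, Ehmt2, Wiz and Trim28 had no such overlap.

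Across the 10 libraries the level of Ehmt1 correlated with that of Ehmt2 at r = 0.80 and that of Setdb1 with that of Trim28 at r = 0.82, on the log2 scale, as a description of libraries that share groups and replicate numbers. Ehmt2 ranged from 10.1 to 55.0 RPKM, a 5.47-fold range and the widest of the 8 genes, whereas Setdb1 ranged from 21.9 to 28.7 RPKM, a 1.31-fold range. The 5 genes outside the set whose levels followed Ehmt2 most closely were Nupl1 (r = 0.978), Mettl2 (r = 0.967), Tnks2 (r = 0.965), Gm2a (r = 0.964) and Tsn (r = 0.961). Nupl1 had a mean of 31.4 RPKM in control NPCs and 19.8 RPKM after Cbx3 siRNA, and 32.6 and 21.3 RPKM in ESCs. Those closest to Ehmt1 were Lztr1 (r = 0.973), Exo5 (r = 0.968), Prpf6 (r = 0.966), Pstpip2 (r = 0.964) and Large2 (r = 0.963). Lztr1 had a mean of 11.8 RPKM in control NPCs and 6.49 RPKM after Cbx3 siRNA, and 10.1 and 5.21 RPKM in ESCs.

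Other genes of the pathway were examined in lists. Of 25 tested genes for other silencing partners and readers, 1 rose and 2 fell after Cbx3 siRNA in NPCs, and 1 of these is the siRNA target Cbx3 itself at −2.98. The other was Chaf1b, a subunit of the chromatin assembly factor that deposits histones at replication, at −0.24 (adjusted p = 0.0444). Zfp57, a zinc finger protein that brings TRIM28 to imprinted regions, rose by 0.40 (adjusted p = 0.0163) from 6.97 ± 0.337 to 9.48 ± 0.110 RPKM (SD, n = 2). The median change of the list was −0.06. After Med26 siRNA 3 of the 25 rose and 0 fell: Zfp57 by 0.57 (adjusted p = 0.00697), the chromatin remodeller Atrx by 0.37 (adjusted p = 0.021) and Tasor, a subunit of the HUSH silencing complex, by 0.32 (adjusted p = 0.0447). These shares stand beside 13.1% and 13.4% of all tested genes called.

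Among 10 tested H3K9 demethylases, 1 fell after each siRNA in NPCs, beside 13.1% (Cbx3) and 13.4% (Med26) of all tested genes called in either direction. After Cbx3 siRNA it was Kdm4c, at −0.32 (adjusted p = 0.0212) and from 29.4 ± 1.49 to 23.3 ± 0.499 RPKM. After Med26 siRNA it was Kdm4a, at −0.31 (adjusted p = 0.0227) and from 26.3 ± 0.127 to 21.0 ± 1.07 RPKM. The median change of the demethylases was −0.15 after Cbx3 siRNA and 0.02 after Med26 siRNA, against 0.007 and −0.0014 for all genes tested.

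Germline genes, several of which are known to be silenced by EHMT1 and EHMT2 in ESCs, were also examined. Of 25 listed, 14 passed the filter on low values and were tested, so the lowest ones are outside these counts. In each library 6 or 7 of the 25 were under 0.1 RPKM. Of the 14 tested, 1 rose and 1 fell after Cbx3 siRNA in NPCs, beside 13.1% of all tested genes called. Cyct, the testis cytochrome c, rose by 0.38 (adjusted p = 0.017), from 6.02 ± 0.0768 to 8.14 ± 0.131 RPKM, and Dazl, a germ cell RNA-binding protein, fell by 0.40 (adjusted p = 0.0421), from 1.13 ± 0.227 to 0.615 ± 0.0728 RPKM. After Med26 siRNA 3 of the 14 rose and 0 fell, beside 13.4% of all tested genes called: Stag3 by 0.48, Tex19.1 by 0.46 and Cyct by 0.28. The median change of the list was 0.08 after Cbx3 siRNA and 0.07 after Med26 siRNA. In ESCs 0 of the 25 silencing partners, 0 of the 10 demethylases and 0 of the 14 germline genes were called after Cbx3 siRNA, as was the case for all genes tested.

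**Figure D4:**
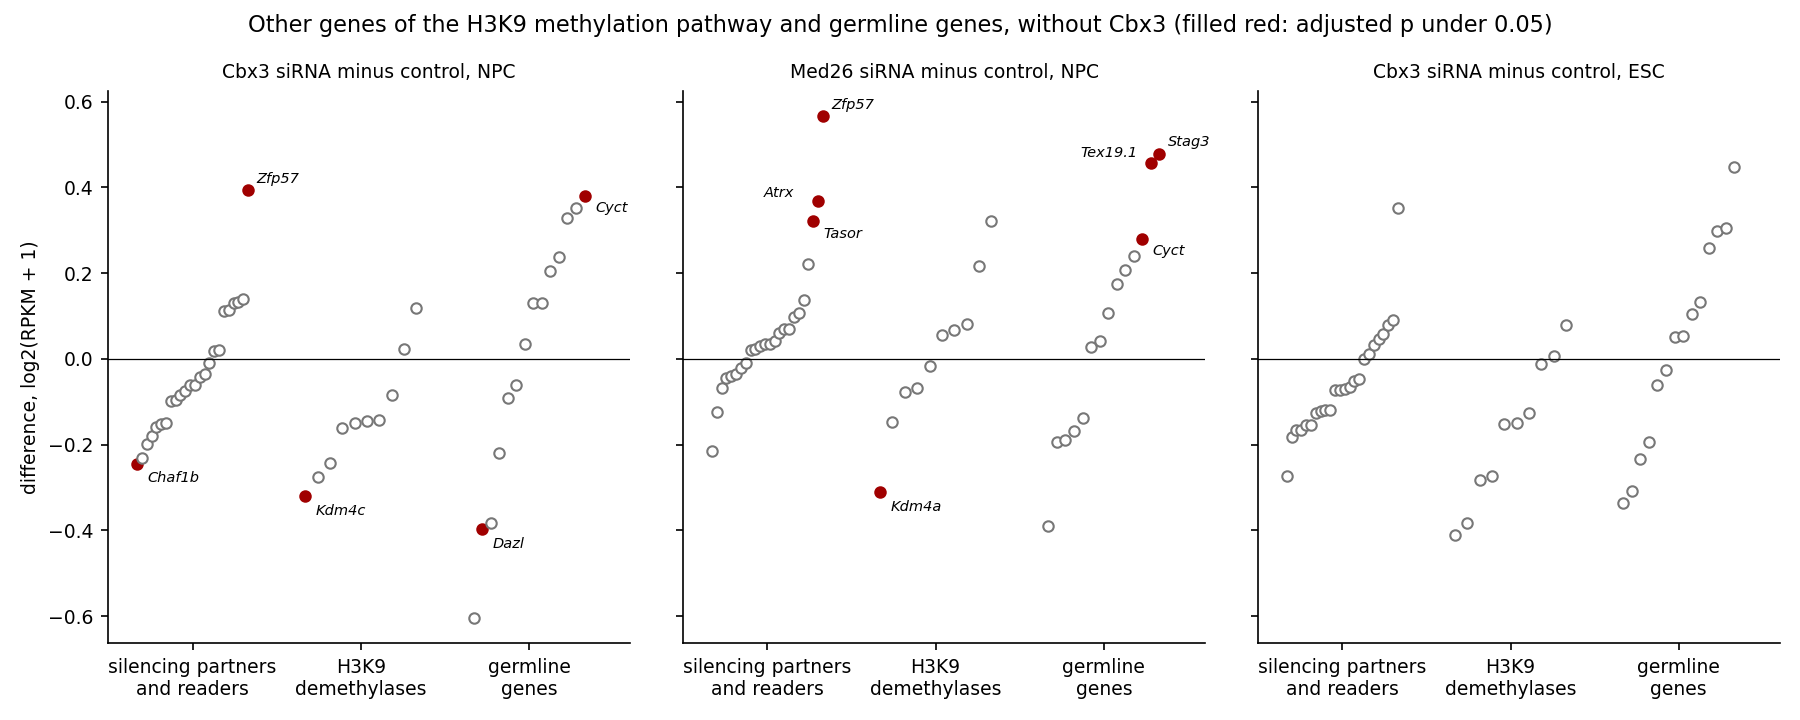
Differences on the log2(RPKM + 1) scale of other silencing partners and readers, H3K9 demethylases and germline genes in 3 comparisons, sorted within each list; filled red points have an adjusted p under 0.05, and Cbx3 is left out of the plot. The named points lie between −0.40 for Dazl and 0.57 for Zfp57, and no point is filled in ESCs.

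Of 18 tested cell cycle genes, 1 fell after Cbx3 siRNA in NPCs and 3 were called after Med26 siRNA, beside 13.1% and 13.4% of all tested genes. Ccnd1, a G1 cyclin, fell after Cbx3 siRNA, at −0.52 (adjusted p = 0.00507). After Med26 siRNA Ccnd1 rose by 0.27 (adjusted p = 0.0323), and Plk1 and Mcm2 fell by 0.39 and 0.23. Mki67, a marker of cycling cells, stood at 13.5 ± 1.58 RPKM in control NPCs, 13.7 ± 1.31 RPKM after Cbx3 siRNA and 14.0 ± 1.96 RPKM after Med26 siRNA, with differences of 0.02 and 0.05 (adjusted p = 0.928 and 0.827). The part of these genes in the Ehmt1 and Ehmt2 values was not tested.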

How the data were processed

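The authors deposited 1 table of RPKM values per RefSeq transcript accession for 10 libraries. Per the submitters' processing notes, TopHat2 2.08 and the mouse build mm9 were used, and per the labels' protocols, Trizol extraction preceded library preparation with an Illumina TruSeq RNA kit. The sources used here do not state the counting tool, read layout or use of strand. Of 35860 rows, 99.07% received a gene name from RefSeq (GRCm38.p6), used for names only. Per gene, the row with the highest mean RPKM was kept (24520 genes), and the 11956 genes that reached 1 RPKM in 2 or more of the 10 libraries were tested.

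RPKM values are not counts, so limma 3.58.1 (R 4.3.3) was run on log2(RPKM + 1), using its intensity trend, two-sided tests and Benjamini-Hochberg adjustment over all tested genes at 0.05. Fold changes are on this scale, which understates changes of low genes. Comparisons among NPC groups used the 6 NPC libraries (3 residual degrees of freedom), and those with ESCs used all 10 (5 residual degrees of freedom). The median residual SD was 0.083 and 0.156, and it was 0.2 in a fit of the 4 ESC libraries alone. With 2 libraries per group, p-values set each difference against a spread between libraries. That spread is pooled over all groups in the fit and drawn toward a trend over all tested genes. The p-values speak for these samples only. The members and gene lists were chosen with earlier results of these data known. All members were named, with Cbx3 and Med26 as targets; from each other list up to 5 called genes with the largest change in an NPC siRNA comparison could be named, plus Mki67, Pou5f1, Nes, Sox1 and Pax6. Nearest patterns are the 5 highest Pearson r over the 10 libraries. Alternatives were a pseudocount of 0.1, no filter, upper-quartile scaling, the summed rows of a gene and a replicate block. Other sets of libraries in the fit and leaving out each library were also used. The motif was searched in GENCODE M21 transcripts of GRCm38 matched to RefSeq accessions.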

Additional observations from a re-analysis of the deposited data

How the results depend on the processing

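The replicate numbers 1 and 2 occur in every group, and the labels do not say that a number marks a shared batch. Replicate differences correlated at 0.892 between the ESC groups and at 0.42 to 0.46 between NPC groups. Between an ESC and an NPC group they correlated at −0.069 to −0.038. Libraries of the same number thus varied together within a cell type, most closely in ESCs, and the main fits leave this out. Since the labels state no pairing, the block, 1 term per cell type, is a second fit only. It removes the replicate spread from the error of the comparison between cell types without a pairing to support that. Counts of called genes moved more than the values of the 8 genes did. For Cbx3 siRNA against control in NPCs, 876 genes passed with no filter, 3495 with the replicate block, 1 in the fit of all 10 libraries and 391 to 1063 with 1 library left out; of the 8 genes, 0 passed in the fit of all 10 libraries and 1 to 2 with 1 library left out. For Med26 siRNA the counts were 611, 3705, 15 and 164 to 1148 genes, and 2 of the 8 passed with the block (Setdb1 and Suv39h1). For Cbx3 against Med26 siRNA they were 1325, 4234, 120 and 560 to 1672 genes, and of the 8 genes 0 passed in the fit of all 10 libraries and 1 to 3 with 1 library left out. For Cbx3 siRNA in ESCs 2 genes passed with no filter, 813 with the block and 0 to 1 with 1 library left out; 2 of the 8 passed with the block. Between controls 6912 genes passed with the block, 47 in the fit of the 4 control libraries and 185 to 2699 with 1 library left out; 4 of the 8 passed with the block, and these values rest on that unsupported term. Atf7ip passed with the block after Cbx3 siRNA in NPCs. By limma its adjusted p was 0.0171 against control and 0.00866 against Med26 siRNA. For the difference of responses 4 genes passed with no filter and 6 with the block. The cause was not tested. Leaving out any library of the compared groups lowered the counts of the 3 comparisons among NPCs by over 1.5 times, and the lone library was then assumed to vary like the other groups. Of 672 single values of the 8 genes under an alternative, 647 kept their side of the threshold, 10 passed only under the alternative and 15 lost it. Only results called in the main fits could lose a call. All 15 therefore belong to Ehmt1 and Ehmt2 for Cbx3 siRNA against control in NPCs, and to Ehmt1, Ehmt2 and Setdb1 against Med26 siRNA. Most of the 672 values belong to results that were not called, so the 647 do not measure how firm the calls were. The sign changed in 42 of the 672, none of which passed in either fit, with values of −0.39 to 0.28. Wiz rested on the fewest steps of the count scale of the 8 genes, 74 to 270 per library, and its NPC libraries separated by replicate number.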
